A study of Mus musculus with 6 samples.

Results

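The transcription factor gene *Myc*, its partner *Max* and 32 genes of ribosome biogenesis were described in cultured mouse aortic smooth muscle cells (MASMCs). The 34 genes were taken by their symbols from a table of 41721 genes, and all 34 were among the 14085 genes with enough counts to be tested. RNA from 6 cultures was sequenced, 3 labelled Pdk4fl/fl and 3 labelled Pdk4SMKO. *Pdk4* encodes a kinase that inhibits the pyruvate dehydrogenase complex, and the comparison asked which transcripts differed when smooth muscle cells lacked it. All 6 cultures came from the abdominal aorta and were treated with angiotensin II (Ang II), so that no untreated culture enters the comparison. Pdk4fl/fl mice carry loxP sites around part of *Pdk4*. Pdk4SMKO mice carry the same alleles and a tamoxifen-inducible Cre under the smooth muscle promoter *Myh11*, and mice of both genotypes were given tamoxifen for 5 days in the study's animal experiments. Per the study's methods, the mice were males, cells were isolated at 10 weeks of age and used between passages 4 and 8, and Ang II was given at 1 μM for 48 h. The labels do not say that the cultures of a genotype came from separate mice, so the p-values measure the spread between these cultures.

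Ribosomes are built in the nucleolus. RNA polymerase I transcribes the long precursor of the ribosomal RNAs, small nucleolar ribonucleoproteins (snoRNPs) modify it at sites chosen by their guide RNAs, and separate sets of assembly factors cut and fold it into the small (40S) and large (60S) subunits. MYC, which binds DNA as a dimer with MAX, is a known activator of many of these genes in growing cells.

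The libraries held between 16526044 and 22481670 counts. Levels are given as CPM, a gene's counts relative to the library total after adjusting that total by TMM factors (trimmed mean of M-values). The factors separated by genotype, at 0.838, 0.811 and 0.784 in Pdk4fl/fl and 1.255, 1.212 and 1.235 in Pdk4SMKO. Differences are given as log2 fold changes of Pdk4SMKO over Pdk4fl/fl with their standard errors (SE). *Pdk4* itself stood at 38.0, 35.1 and 31.9 CPM in Pdk4fl/fl and at 4.83, 9.06 and 6.92 CPM in Pdk4SMKO, a log2 fold change of -2.34 (SE 0.22, edgeR adjusted p = 4.49e-06). Its level in Pdk4SMKO was thus 19.8% of that in Pdk4fl/fl. The genotypes differed widely: log2 CPM correlated at 0.981 or more within a genotype and at 0.748 or less between them, and 37.1% of the genes tested were lower and 42.0% higher in Pdk4SMKO at an adjusted p under 0.05.

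Marker genes of several cell types also moved with the genotype, and their part in the results on ribosome biogenesis was not tested. Of 8 smooth muscle markers, 4 were lower and 3 higher in Pdk4SMKO, with a summed level of 830 to 862 CPM in Pdk4fl/fl and 749 to 1001 CPM in Pdk4SMKO. Large opposite changes lay within this sum. *Acta2* rose from a mean of 233 to 701 CPM, while *Tagln* fell from 253 to 52.7 CPM and *Smtn* from 280 to 57.5 CPM. *Myh11* was called higher but was near 0 in both genotypes (means of 0.613 and 2.39 CPM). All 7 mesothelial markers tested, of 8 listed, were higher, with a sum of 74.2 to 99.99 CPM against 723 to 1325 CPM. In Pdk4fl/fl most of that sum was *Krt19* (mean of 79.2 CPM). Of the 6 macrophage markers tested, of 8 listed, 5 were higher and 1, *Cd68*, was lower (means of 31.2 CPM in Pdk4fl/fl and 4.29 CPM in Pdk4SMKO). *C1qa*, *C1qb*, *Adgre1* and *Tyrobp* had no count in any Pdk4fl/fl library. The macrophage sum was 21.4 to 38.0 CPM in Pdk4fl/fl, where most of it was *Cd68*, and 9.71 to 30.5 CPM in Pdk4SMKO. Of 6 fibroblast markers, 3 were higher and 1 lower (sum of 626 to 855 CPM against 5152 to 7055 CPM). Most of this sum was 1 gene, *Col1a1*, with means of 619.7 CPM in Pdk4fl/fl and 5900.5 CPM in Pdk4SMKO. Endothelial markers summed to 16.0 to 24.9 CPM in Pdk4fl/fl and 3.23 to 6.67 CPM in Pdk4SMKO, and 2 of the 3 tested, of 6 listed, were lower. Most of the endothelial sum was 1 gene, *Kdr*, with means of 16.5 CPM in Pdk4fl/fl and 2.96 CPM in Pdk4SMKO. In such bulk samples, fewer cells of a type and less RNA per cell cannot be told apart.

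Transcripts of the ribosome biogenesis genes were mostly lower in Pdk4SMKO cells. Of the 34 genes, 25 (73.5%) fell and 5 (14.7%) rose at an adjusted p under 0.05 in edgeR's quasi-likelihood test, against 37.1% lower and 42.0% higher among all genes tested. With a 2-fold change also required, 18 genes (52.9%) were lower and none was higher, against 26.5% and 32.8% of all genes. At least a 4-fold fall was seen in 11 of the 34, against 12.5% of all genes. The median log2 fold change of the 34 was -1.23 and that of all genes 0.12, with the 10th and 90th percentiles of all genes at -2.29 and 3.17. In 24 genes every Pdk4SMKO library lay below every Pdk4fl/fl library (38.3% of all genes), in 5 every one lay above (43.5% of all genes), and in 5 the genotypes overlapped. An exact two-sided permutation test of 3 cultures against 3 cannot give a p under 0.1, the value it gave for each of the 29 genes without overlap.

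The sum over the 34 genes was 13033, 13463 and 14924 CPM in the Pdk4fl/fl libraries and 3166, 2878 and 3097 CPM in the Pdk4SMKO libraries. As a share of all counts in a library, they made up 1.09%, 1.09% and 1.17% in Pdk4fl/fl and 0.397%, 0.348% and 0.382% in Pdk4SMKO. Such a share uses no TMM factor and amounts to scaling by total counts alone. The genotypes did not overlap in either measure. The abundant nucleolar genes *Npm1* and *Ncl* alone supplied 46.2% to 53.6% of the sum in Pdk4fl/fl and 32.6% to 35.7% in Pdk4SMKO. Without this pair, the other 32 genes summed to 6846, 7243 and 6921 CPM in Pdk4fl/fl and to 2123, 1940 and 1992 CPM in Pdk4SMKO.

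**Figure D1:**
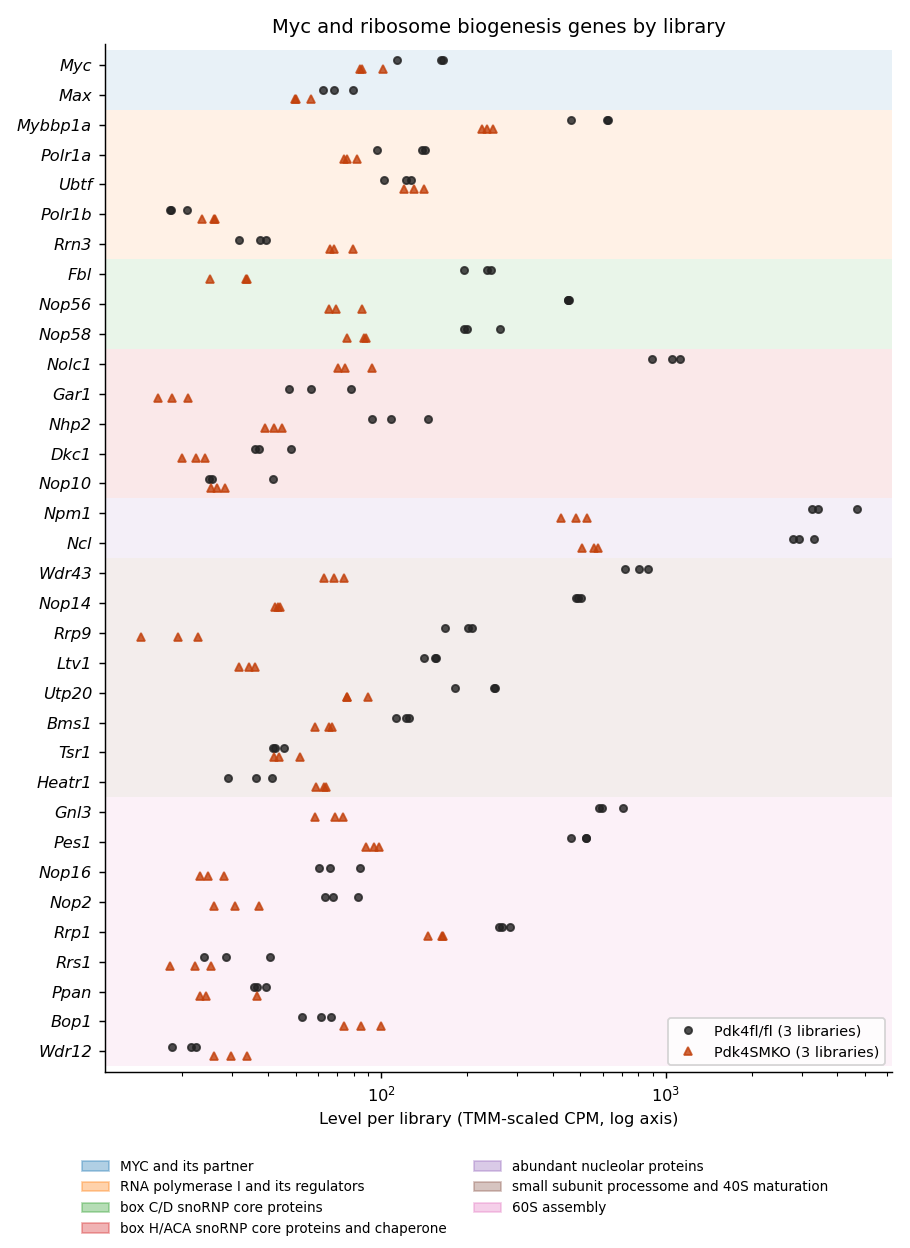
Level of each of the 34 genes in each library, in TMM-scaled CPM on a log axis. Black circles are the 3 Pdk4fl/fl libraries, orange triangles the 3 Pdk4SMKO libraries, and shading marks the role of the gene. In 24 genes the triangles lie wholly to the left of the circles, in 5 wholly to the right, and in *Ubtf*, *Nop10*, *Tsr1*, *Rrs1* and *Ppan* they overlap.

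Lower genes made up a larger share in the higher bands of level, which the Pdk4fl/fl level itself helped to set. In bands of the mean level over both genotypes, per kilobase of gene model, 13 of the 34 genes stood at 50 CPM per kb or more, and all 13 were lower, with a median log2 fold change of -2.62. Of the 1228 genes tested in that band, 73.9% were lower, with a median of -1.31. Between 10 and 50 CPM per kb, 10 of 16 of the genes were lower (62.5%, median -0.60), close to the 52.1% of the 3808 genes tested in the band (median -0.43). Below 10 CPM per kb, 2 of 5 were lower and 3 higher, with a median of 0.40 against 0.63 for the 9049 genes tested. The bands were set after the values were seen. A gene's Pdk4fl/fl level enters both its band and its difference, so a gene high in Pdk4fl/fl alone can reach the top band. Of the 13 genes, only *Npm1*, *Ncl* and *Rrp1* also stood at 50 CPM per kb or more in Pdk4SMKO itself (175, 53.8 and 78.9). *Nolc1*, for one, stood at 280 CPM per kb in Pdk4fl/fl and 21.8 in Pdk4SMKO. The share lower in a band is therefore not independent of how the band was set.

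*Myc*, the transcription factor, stood at 164, 162 and 114 CPM in the Pdk4fl/fl libraries and 101, 84.2 and 85.7 CPM in the Pdk4SMKO libraries. The highest Pdk4SMKO library lay just below the lowest Pdk4fl/fl library, which was replicate 3. The log2 fold change was -0.70 (SE 0.16, edgeR adjusted p = 0.00233), or 61.7% of the Pdk4fl/fl mean, from -0.61 to -0.86 with each library left out in turn. With the libraries scaled by their total counts alone, it was -0.10 (adjusted p = 0.626). The gene lies at chr15:63628035-63634726 on the plus strand in the coordinates of the table.

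*Max*, whose protein pairs with MYC on DNA, measured 68.0, 79.5 and 62.4 CPM in Pdk4fl/fl and 49.6, 50.1 and 56.5 CPM in Pdk4SMKO. It fell by 0.43 on the log2 scale (SE 0.13, edgeR adjusted p = 0.0125), while scaling by total counts alone turned its direction (log2 fold change 0.18). The call was also lost without Pdk4fl/fl replicate 2 (-0.31, adjusted p = 0.0793) or Pdk4SMKO replicate 2 (-0.39, adjusted p = 0.0543). Both differences were small beside those of the 18 genes lower by 2-fold.

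MYC and MAX together bind the hexamer CACGTG, an E-box that is its own reverse complement. RefSeq promoter windows of the GRCm38.p6 build, from 250 bases before to 50 bases after a gene's start, were matched by symbol for 29 of the 34 genes, all but *Bop1*, *Fbl*, *Myc*, *Npm1* and *Rrs1*. The hexamer occurred in 9 of the 29 (31.0%), against 11.7% of 9560 tested genes with a window. Among the tested genes it occurred in 16.1% of those lower in Pdk4SMKO and in 8.91% of those higher, and in 8.09% of all 27025 genes with a window. It was present in *Max*, *Nop2*, *Pes1*, *Wdr43*, *Utp20*, *Ltv1* and *Mybbp1a*, which were lower in Pdk4SMKO, in *Rrn3*, which was higher, and in *Tsr1*, which was not called. Thus 7 of 21 lower genes (33.3%), 1 of 4 higher genes and 1 of 4 genes not called held it. The match is a description of the letters in these windows and was not tested against binding.

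Windows of 3 lower genes from different steps of assembly and of the gene with the largest rise are printed 5′ to 3′, with each CACGTG in capitals. *Wdr43* lies at chr17:71615965-71616264 on the plus strand, *Pes1* at chr11:3963725-3964024 on the plus strand, *Ltv1* at chr10:13193088-13193387 on the minus strand and *Rrn3* at chr16:13780449-13780748 on the plus strand.
Wdr43: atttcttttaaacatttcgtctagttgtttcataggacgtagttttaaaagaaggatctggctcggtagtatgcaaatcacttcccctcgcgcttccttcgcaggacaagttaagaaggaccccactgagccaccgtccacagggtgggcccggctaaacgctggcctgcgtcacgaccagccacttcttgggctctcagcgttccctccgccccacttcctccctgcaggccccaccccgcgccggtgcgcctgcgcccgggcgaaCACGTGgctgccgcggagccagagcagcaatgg
Pes1: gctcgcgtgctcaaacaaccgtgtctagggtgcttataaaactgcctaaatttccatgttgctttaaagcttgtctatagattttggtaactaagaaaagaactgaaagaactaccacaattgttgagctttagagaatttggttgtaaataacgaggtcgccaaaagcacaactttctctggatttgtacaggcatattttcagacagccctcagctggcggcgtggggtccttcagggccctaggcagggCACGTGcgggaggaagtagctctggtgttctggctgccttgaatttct
Ltv1: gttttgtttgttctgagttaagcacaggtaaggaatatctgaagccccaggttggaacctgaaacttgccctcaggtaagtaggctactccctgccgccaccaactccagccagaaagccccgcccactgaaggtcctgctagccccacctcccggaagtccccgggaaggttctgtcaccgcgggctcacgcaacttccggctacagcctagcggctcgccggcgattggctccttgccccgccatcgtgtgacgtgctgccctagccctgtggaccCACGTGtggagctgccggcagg
Rrn3: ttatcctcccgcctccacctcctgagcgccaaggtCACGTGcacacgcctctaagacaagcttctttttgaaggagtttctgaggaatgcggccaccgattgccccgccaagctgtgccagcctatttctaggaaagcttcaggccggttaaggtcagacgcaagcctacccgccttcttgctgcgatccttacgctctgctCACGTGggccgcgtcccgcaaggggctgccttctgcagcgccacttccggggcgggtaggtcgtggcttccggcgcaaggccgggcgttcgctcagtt
Counted from the annotated start as position 0, the first base of the hexamer stood at 17 in *Wdr43*, 2 in *Pes1* and 28 in *Ltv1*, and at -215 and -48 in *Rrn3*.

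The genes for RNA polymerase I and its regulators did not move in 1 direction. Of 5, 2 fell, 2 rose and 1 was not called, with a median log2 fold change of 0.16. *Mybbp1a*, a nucleolar protein that binds MYB and acts on ribosomal RNA synthesis, measured 625, 623 and 463.5 CPM in Pdk4fl/fl and 246, 235 and 227 CPM in Pdk4SMKO (log2 fold change -1.27, SE 0.14, edgeR adjusted p = 1.6e-05). The groups were far apart, and Pdk4fl/fl replicate 3 was again the lowest of its genotype. *Rrn3*, the initiation factor TIF-IA that brings polymerase I to the ribosomal DNA promoter, measured 39.3, 31.6 and 37.5 CPM in Pdk4fl/fl and 79.6, 65.9 and 68.1 CPM in Pdk4SMKO. This rise of 1.97-fold (log2 fold change 0.98, SE 0.14, edgeR adjusted p = 7.94e-05) was the largest among the 34 genes.

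The polymerase's 2 largest subunits went opposite ways. *Polr1a* stood at 143, 139 and 96.9 CPM in Pdk4fl/fl and 82.5, 75.8 and 73.8 CPM in Pdk4SMKO, a fall of 1.63-fold (adjusted p = 0.00189). *Polr1b* stood at 20.9, 18.1 and 18.3 CPM against 26.0, 25.9 and 23.5 CPM, a rise of 1.32-fold (adjusted p = 0.0226). The *Polr1b* call was lost without Pdk4fl/fl replicate 2 (adjusted p = 0.0751) or Pdk4SMKO replicate 2 (adjusted p = 0.071), and that of *Polr1a* with scaling by total counts alone (adjusted p = 0.573). Per kilobase, the ratio of *Polr1a* to *Polr1b* was 2.53 to 3.67 in Pdk4fl/fl and 1.40 to 1.51 in Pdk4SMKO, a ratio that no scaling of the libraries can alter. *Ubtf*, the factor that keeps ribosomal DNA open for transcription, measured 122, 128 and 102 CPM in Pdk4fl/fl and 120.3, 142 and 131 CPM in Pdk4SMKO, with overlapping groups. Its log2 fold change was 0.16 (95% interval -0.13 to 0.44, adjusted p = 0.28).

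The 3 genes for core proteins of the box C/D snoRNPs, which methylate ribosomal RNA, were lower in Pdk4SMKO by 2-fold or more (*Snu13*, for another core protein, was not analysed here), with a median log2 fold change of -2.62. *Fbl*, the methyltransferase fibrillarin, measured 195, 236 and 243 CPM in Pdk4fl/fl and 33.7, 25.0 and 33.5 CPM in Pdk4SMKO (log2 fold change -2.87, SE 0.16, edgeR adjusted p = 1.27e-07). *Nop56*, a scaffold of the particle, measured 451, 453 and 456 CPM against 85.7, 65.5 and 69.4 CPM (-2.62, SE 0.14). *Nop58*, the partner of NOP56 in the particle, measured 201, 195 and 262 CPM against 88.6, 75.9 and 87.1 CPM (-1.39, SE 0.14). All 3 genes were clear of overlap, but they did not fall alike: the ratio of *Nop56* to *Nop58* per kilobase was 4.63 to 6.19 in Pdk4fl/fl and 2.12 to 2.58 in Pdk4SMKO. The ratio of *Fbl* to *Nop58* was 8.60 to 11.2 in Pdk4fl/fl and 3.05 to 3.56 in Pdk4SMKO.

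The next group held the genes for core proteins of the box H/ACA snoRNPs, which turn uridine into pseudouridine, and for the snoRNP chaperone *Nolc1*. Of these 5 genes, 4 were lower and 1 was not called, with a median log2 fold change of -1.46. *Nolc1*, a phosphoprotein that chaperones snoRNPs in the nucleolus, showed the largest fall of the 34 genes. It measured 1048, 1122 and 893 CPM in Pdk4fl/fl and 93.0, 70.8 and 74.7 CPM in Pdk4SMKO, a fall of 12.8-fold (log2 fold change -3.68, SE 0.16, edgeR adjusted p = 3.52e-08). Every Pdk4SMKO library was therefore far under the lowest Pdk4fl/fl library. In the table it lies at chr19:46874073-46887100 on the plus strand.

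Among the particle's own proteins, *Gar1* measured 47.4, 56.8 and 78.3 CPM in Pdk4fl/fl and 20.9, 18.5 and 16.4 CPM in Pdk4SMKO (log2 fold change -1.71, SE 0.19). *Nhp2* measured 92.5, 108 and 146 CPM against 42.0, 39.0 and 44.8 CPM (-1.46, SE 0.17). *Dkc1*, the pseudouridine synthase dyskerin, fell by 0.87 on the log2 scale (SE 0.16, edgeR adjusted p = 4.76e-04), a call lost with scaling by total counts alone (adjusted p = 0.144). *Nop10*, the smallest of the set, measured 25.5, 24.9 and 41.5 CPM in Pdk4fl/fl and 25.2, 26.4 and 28.4 CPM in Pdk4SMKO. Its groups overlapped, and its log2 fold change of -0.20 (95% interval -0.64 to 0.25, adjusted p = 0.377) turned to 0.01 with upper-quartile scaling, to 0.41 with total counts alone and to 0.07 without Pdk4fl/fl replicate 3. Per kilobase, *Gar1* was at 1.20 to 1.47 times *Nop10* in Pdk4fl/fl and at 0.375 to 0.537 times in Pdk4SMKO.

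The abundant nucleolar proteins nucleophosmin and nucleolin, which take part in several steps of assembly, were both lower. *Npm1* measured 3260.5, 3427 and 4682 CPM in Pdk4fl/fl and 485, 429 and 529 CPM in Pdk4SMKO, a fall of 7.88-fold (log2 fold change -2.98, SE 0.18, edgeR adjusted p = 2.05e-07). *Ncl* measured 2926.5, 2794 and 3320.2 CPM against 558, 509 and 576 CPM, a fall of 5.50-fold (-2.46, SE 0.14). Both had no overlap between genotypes, and *Npm1* has many processed pseudogenes, between which reads may have been split. It was the most abundant of the 34 genes per kilobase in both genotypes, at 1375 ± 282 CPM per kb (SD, n = 3) in Pdk4fl/fl and 175 ± 18.2 CPM per kb in Pdk4SMKO.

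In the small subunit processome and the later steps of 40S maturation, 6 of 8 genes fell, 1 rose and 1 was not called, with a median log2 fold change of -1.82. *Wdr43*, a component of the processome's early complex on the precursor (UTP-A), measured 716, 805 and 869 CPM in Pdk4fl/fl and 68.4, 63.2 and 74.2 CPM in Pdk4SMKO, a fall of 11.6-fold (log2 fold change -3.54, SE 0.14, edgeR adjusted p = 2.06e-08). *Nop14*, another processome factor, measured 482, 502 and 490.3 CPM against 43.5, 42.5 and 44.3 CPM (-3.50, SE 0.12). *Rrp9*, which binds the U3 snoRNA, measured 167, 208 and 202 CPM against 22.8, 19.3 and 14.3 CPM (-3.35, SE 0.19). These 3 genes stood at 8.61%, 8.83% and 9.76% of their Pdk4fl/fl level.

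*Heatr1* rose, although its protein sits in the same early complex as WDR43. It measured 41.5, 36.2 and 29.0 CPM in Pdk4fl/fl and 58.8, 62.9 and 64.0 CPM in Pdk4SMKO, a rise of 1.74-fold (log2 fold change 0.80, SE 0.15, edgeR adjusted p = 5.61e-04) with no overlap. The ratio of *Wdr43* to *Heatr1* per kilobase was 32.7, 42.1 and 56.8 in Pdk4fl/fl and 2.20, 1.90 and 2.20 in Pdk4SMKO. Of the other members, *Ltv1*, needed late in 40S maturation, fell by 2.15 on the log2 scale (SE 0.12), *Utp20* fell by 1.5 (SE 0.15) and the GTPase gene *Bms1* fell by 0.92 (SE 0.12). *Tsr1*, a late 40S factor, measured 41.7, 45.5 and 42.2 CPM against 51.9, 42.1 and 43.6 CPM. Its groups overlapped, with a log2 fold change of 0.09 (95% interval -0.20 to 0.38, adjusted p = 0.542).

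In 60S assembly, 6 of 9 genes fell, 2 rose and 1 was not called, with a median log2 fold change of -0.77. *Gnl3*, the nucleolar GTPase nucleostemin, measured 585, 599 and 709 CPM in Pdk4fl/fl and 73.7, 58.5 and 68.7 CPM in Pdk4SMKO, a fall of 9.41-fold (log2 fold change -3.23, SE 0.15, edgeR adjusted p = 4.06e-08). *Nop16* fell by 1.48 (SE 0.16), *Nop2*, an RNA methyltransferase of the large subunit RNA, by 1.19 (SE 0.17) and *Rrp1* by 0.77 (SE 0.11) on the log2 scale, the last not called with total counts alone (adjusted p = 0.206). *Rrs1* measured 23.9, 28.4 and 40.6 CPM against 22.3, 18.1 and 25.2 CPM. The groups overlapped, its log2 fold change of -0.50 (SE 0.21, edgeR adjusted p = 0.0484) only just passed, and the direction turned with total counts alone (0.11). Without any one of Pdk4fl/fl replicates 2 and 3 and Pdk4SMKO replicates 1 and 2, the call of *Rrs1* was lost (adjusted p = 0.0663, 0.166, 0.0777 and 0.171). *Ppan* measured 39.5, 35.7 and 36.7 CPM against 36.5, 23.0 and 24.3 CPM, and Pdk4SMKO replicate 1 alone reached the Pdk4fl/fl range. Its log2 fold change of -0.41 was not called (95% interval -0.82 to -0.01, adjusted p = 0.0578), was called without that library (-0.65, adjusted p = 0.00206), and turned to 0.19 with total counts alone.

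The proteins of *Pes1*, *Bop1* and *Wdr12* form 1 complex, PeBoW, required for processing of the 60S precursor, and the 3 transcripts moved in different directions. *Pes1* measured 466, 522 and 523 CPM in Pdk4fl/fl and 88.5, 94.5 and 98.0 CPM in Pdk4SMKO, a fall of 5.38-fold (log2 fold change -2.43, SE 0.12, edgeR adjusted p = 6.17e-08). *Bop1* measured 61.7, 66.5 and 52.9 CPM against 100.1, 84.8 and 73.8 CPM, a rise of 1.43-fold (0.51, SE 0.15, adjusted p = 0.0086). *Wdr12* measured 18.4, 21.4 and 22.4 CPM against 33.9, 25.9 and 29.8 CPM, a rise of 1.44-fold (0.53, SE 0.15, adjusted p = 0.0095). None of the 3 genes overlapped between genotypes.

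Per kilobase, *Pes1* stood at 6.62, 6.89 and 8.67 times *Bop1* in the Pdk4fl/fl libraries and at 0.776, 0.978 and 1.16 times in the Pdk4SMKO libraries. The ratio of *Bop1* to *Wdr12* was 11.3 to 16.1 in Pdk4fl/fl and 11.9 to 15.7 in Pdk4SMKO, a mean log2 difference of -0.01. In all, 11 such ratios within a complex or pair were computed, chosen after the values were seen and with no test. The 2 that differed least besides *Bop1* to *Wdr12* were *Myc* to *Max* (mean log2 difference -0.26, with overlapping groups) and *Npm1* to *Ncl* (-0.51). The counts of *Bop1* share their locus with *Mroh1* on the opposite strand, which held 7524 counts over the Pdk4fl/fl libraries and 13615 over the Pdk4SMKO libraries, against 2835 and 5488 for *Bop1*. *Scx*, also on the opposite strand, went from 316 to 2616 counts. *Wdr12* overlaps *Carf* on the opposite strand, which went from 20 to 385 counts, against 962 and 1898 for *Wdr12*. Whether the counting used strand is not given in the sources used here, so reads of *Bop1* and *Wdr12* may not be told apart from those of these neighbours, and their part in the rise of *Bop1* and *Wdr12* was not tested.

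**Figure D2:**
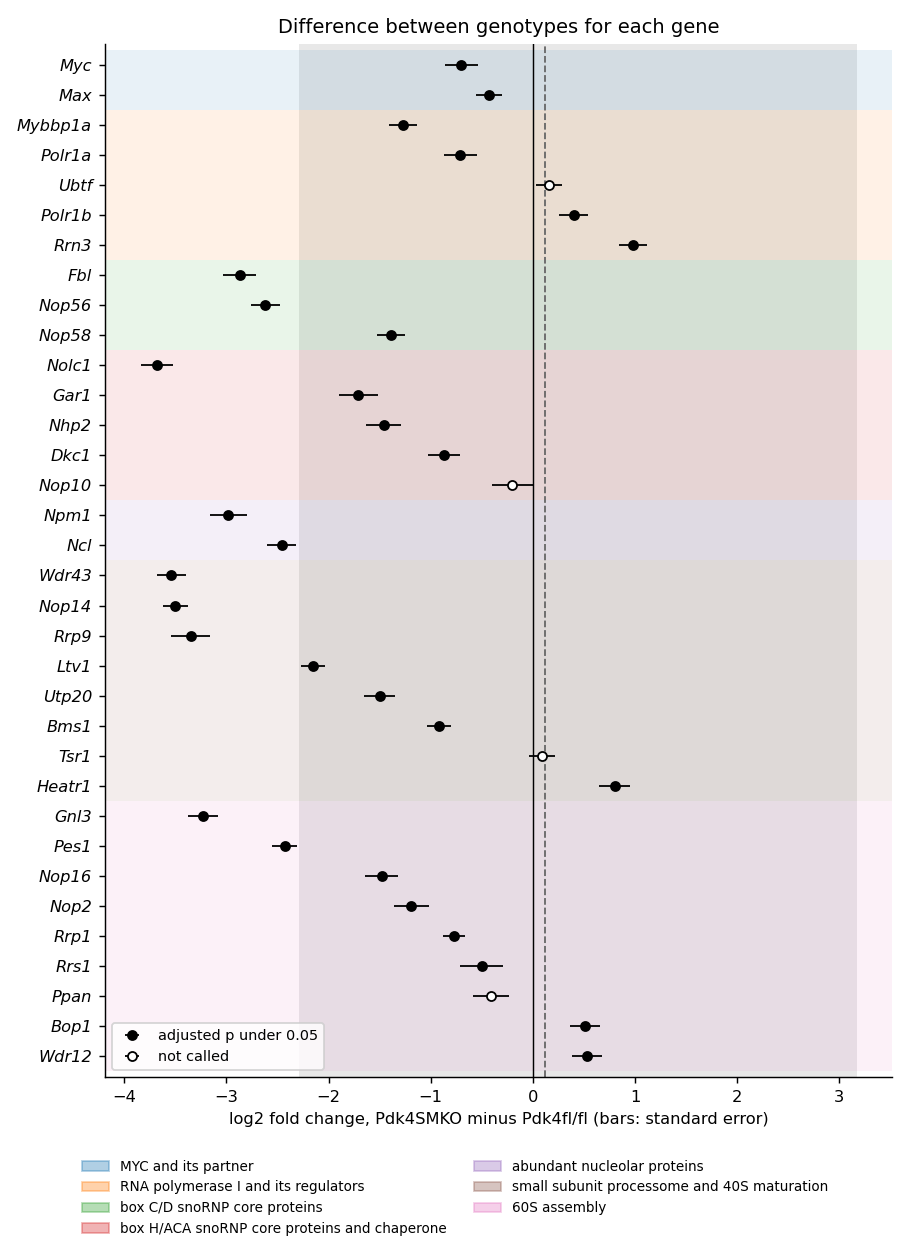
Log2 fold change of each gene, Pdk4SMKO minus Pdk4fl/fl, with bars for the standard error, grouped by role. Filled points passed an adjusted p under 0.05 and open points did not. The grey band runs from the 10th to the 90th percentile of all 14085 genes tested (-2.29 to 3.17), and the dashed line is their median (0.12). The values run from -3.68 (*Nolc1*) to 0.98 (*Rrn3*).

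Genes overlapping other genes bear on 18 of the 34, and 16 overlap no gene that had counts. Among these 16, 11 were lower and 3 higher. *Rrp9* overlaps *Parp3* on the other strand, which had more counts than *Rrp9* (25340 and 7510 over the libraries of each genotype, against 8960 and 1197). *Nop56* overlaps *Idh3b*, with 8324 and 5016 counts against 21039 and 4683. *Wdr43* and *Gnl3* contain snoRNA genes, of which those with the most counts had 106 and 132 in Pdk4fl/fl, against 36888 and 29042 counts for the host genes. *Gnl3* also overlaps *Glt8d1* on the opposite strand, with 286 and 1871 counts against 29042 and 4255. Also on the opposite strand, *Mpp1* overlaps *Dkc1* (1411 and 1667 against 1850 and 1405) and *Rmnd5b* overlaps *Nhp2* (1709 and 1805 against 5283 and 2654).

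Compared per kilobase of gene model, the 34 genes spanned 1.75 CPM per kb (*Wdr12*) to 1375 CPM per kb (*Npm1*) in Pdk4fl/fl and 2.52 (*Wdr12*) to 175 CPM per kb (*Npm1*) in Pdk4SMKO. The order in Pdk4fl/fl ran *Npm1*, *Gnl3* (335 ± 36.0 CPM per kb, SD, n = 3), *Ncl* (296 ± 26.9), *Nolc1* (280 ± 32.0) and *Wdr43* (231 ± 22.3), in which *Gnl3*, *Ncl* and *Nolc1* lay within about their spread of each other. In Pdk4SMKO, *Npm1* was followed by *Rrp1* (78.9 ± 5.11), *Ncl* (53.8 ± 3.41), *Mybbp1a* (40.7 ± 1.69) and *Nhp2* (36.6 ± 2.52). *Nolc1* went from rank 4 to rank 13, *Wdr43* from 5 to 15, *Nop14* from 7 to 19 and *Rrp9* from 14 to 30. *Bop1* went from rank 23 to rank 7 and *Rrn3* from 30 to 16. The ranks rest on the lengths of the gene models, such as 10179 bases for *Ncl*, 10734 for *Nop58* and 11859 for *Wdr12*. A model longer than the transcripts present lowers the level per kilobase, and transcript lengths were not measured. The size of the ratios between genes rests on these lengths too, while a fixed length does not alter how a ratio differed between genotypes.

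Across the 34 genes, the log2 fold change correlated with the log2 level per kilobase in Pdk4fl/fl at a Pearson r of -0.84 (Spearman -0.84), against -0.58 over 13827 genes tested. These points share their libraries, and the Pdk4fl/fl level enters both axes. Against the Pdk4SMKO level, which also enters both, r was -0.32 in the 34 genes and 0.11 over 13756 genes tested. Against the length of the gene model, r was 0.22 in the 34 genes. The genes that were lowest in Pdk4fl/fl per kilobase, *Wdr12*, *Polr1b* and *Heatr1*, were all among the 5 that rose.

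**Figure D3:**
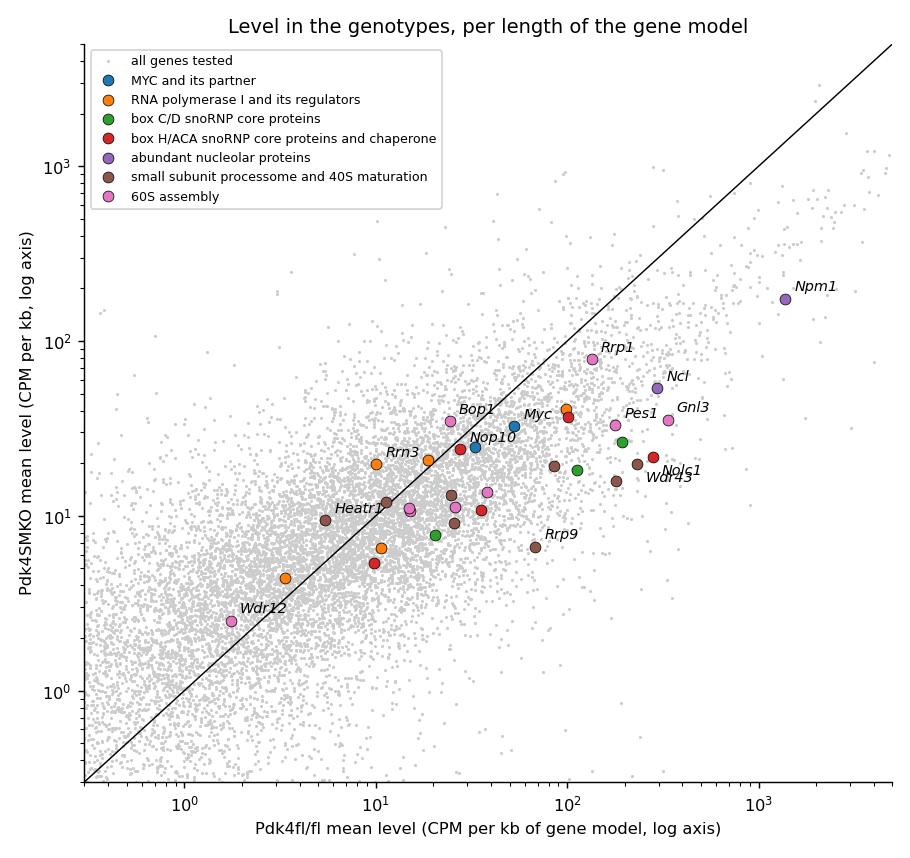
Mean level in Pdk4SMKO (y) against Pdk4fl/fl (x), in CPM per kilobase of gene model on log axes, for the 34 genes (coloured by role) over the genes tested (grey; 11455 lie within the axes and 2630 outside). The line marks equal levels. *Npm1*, *Nolc1* and *Wdr43* lie far below it, and *Rrn3*, *Heatr1*, *Bop1* and *Wdr12* above it.

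One Pdk4fl/fl library differed from the other pair in a way that went with gene length. In replicate 3, the 11 genes under 2500 bases stood at a median of 0.26 above the mean of the other Pdk4fl/fl libraries on the log2 scale, with 7 above it, and the 23 longer genes at a median of -0.03, with 10 above it. The correlation of this excess with log2 length was -0.43 in the 34 genes and -0.25 over 13827 genes. *Myc* was 0.52 lower and *Nop10* 0.72 higher in that library than in the others. Without it, *Myc* had a log2 fold change of -0.86, 24 of the 34 genes were lower and 5 higher, and the same 18 were lower by 2-fold. Those 18 were called at 2-fold with any 1 of the 6 libraries left out.

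Most other factors of 60S and 40S assembly moved in a like direction, by lists of genes that exclude the 34, while other polymerase I genes were more mixed. Of 53 other 60S assembly factors, 43 were lower and 2 higher, with a median log2 fold change of -1.37. Of 48 other factors of the small subunit processome and 40S maturation tested, 35 were lower and 4 higher (median -1.26). Of 16 other subunits and factors of polymerase I, 8 were lower and 4 higher (median -0.48). For comparison, 37.1% of all genes tested were lower and 42.0% higher. The share lower was 52.1% between 10 and 50 CPM per kb and 73.9% at 50 CPM per kb or more, and these lists were not split by level. The cytosolic ribosomal protein genes, taken by name, were lower in 67 of 70 and higher in 1 (median -2.09).

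The furthest falls in these lists were those of *Tex10* (log2 fold change -4.74, SE 0.13) and the GTPase gene *Gnl2* (-3.59, SE 0.12) in 60S assembly, of *Nob1* (-3.77, SE 0.12), the nuclease that forms the end of the small subunit RNA, and *Utp14a* (-3.05, SE 0.15) in 40S assembly, and of *Taf1d* (-4.39, SE 0.24) and *Znrd1* (-3.40, SE 0.22) for polymerase I. *Tex10* went from 720 ± 36.5 to 26.9 ± 1.65 CPM and *Nob1* from 405 ± 26.2 to 29.8 ± 0.449 CPM (SD, n = 3). The highest were *Nvl* (0.70) and *Rrp1b* (0.69) for 60S, *Utp14b* (1.70), a retrogene copy of *Utp14a* between which reads may be split, and *Wdr75* (1.18) for 40S, and *Ttf1* (1.47), the polymerase I terminator, and *Polr1e* (0.78). Genes that rose were thus found in each of these 3 lists.

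Proteins that share MAX or its relatives as partners showed no common direction. Of 10 such genes tested, 4 were lower and 5 higher, with a median log2 fold change of 0.33, against 37.1% lower and 42.0% higher among all genes tested. *Mycl*, a relative of *Myc*, went from 7.49 ± 1.16 to 0.300 ± 0.0519 CPM (SD, n = 3, log2 fold change -4.61), and *Mxd1*, which opposes MYC at MAX, from 99.0 ± 3.86 to 10.6 ± 0.789 CPM (-3.22). *Mnt*, another antagonist, went from 8.11 ± 3.31 to 36.7 ± 6.19 CPM (2.17). *Mlxipl* had 1, 0 and 1 counts in the Pdk4fl/fl libraries and 16, 21 and 26 in Pdk4SMKO. *Mycn* did not pass the filter, with 0 counts in each Pdk4fl/fl library and 36, 9 and 11 in Pdk4SMKO.

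Of 22 genes known as MYC targets outside ribosome assembly, 18 were lower and 3 higher (median log2 fold change -1.58). Among all genes tested, 37.1% were lower and 42.0% higher, and of those at 50 CPM per kb or more, 73.9% were lower. This list was not split by level. *Apex1*, a DNA repair enzyme, went from 934 ± 183 to 53.5 ± 8.0 CPM (-4.13), and *Odc1*, the first enzyme of polyamine synthesis, from 314 ± 11.6 to 32.5 ± 2.83 CPM (-3.27). *Ccnd2*, a cyclin of the G1 phase, went the other way, from 74.1 ± 9.61 to 530.3 ± 111 CPM (2.84), as did *Ldha*, the lactate dehydrogenase subunit, from 209 ± 16.1 to 448 ± 14.6 CPM (1.10). Among 8 proliferation markers, 2 were lower (*Ccnb1* at -1.87 and *Mki67* at -0.77, the last with overlapping groups), 2 were higher (*Aurkb* at 1.85 and *Ccna2* at 1.52) and 4 were not called, with a median of 0.12. All 8 were highest, among the Pdk4SMKO libraries, in replicate 1, and without that library 4 were lower and 2 higher.

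**Figure D4:**
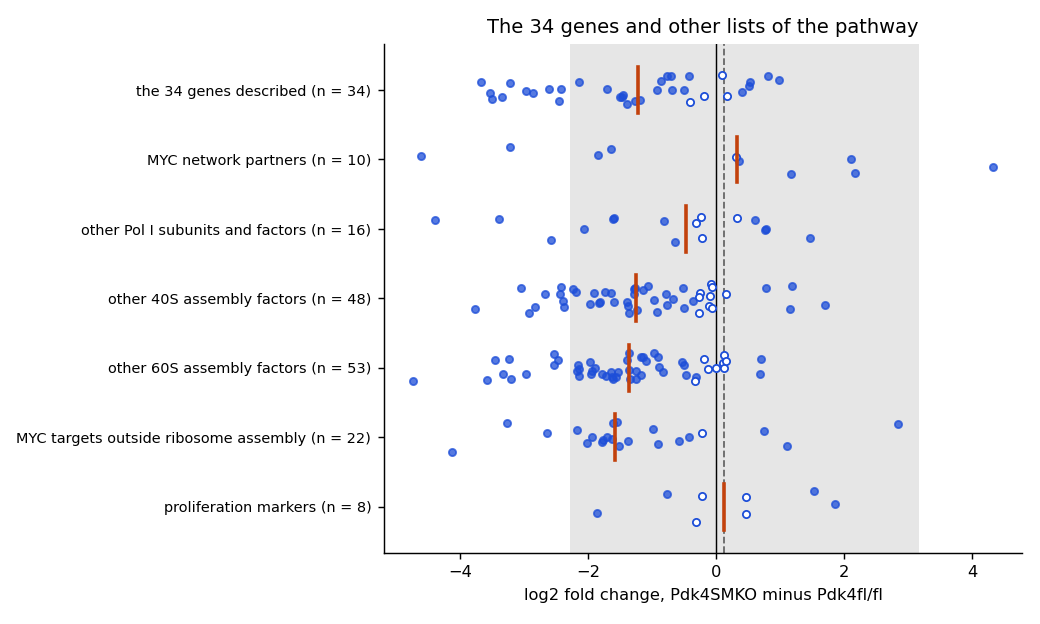
Log2 fold change, Pdk4SMKO minus Pdk4fl/fl, of every gene tested in the 34 genes and 6 other lists (filled, adjusted p under 0.05; open, not called), with the median of each list as an orange bar. The grey band and dashed line are the 10th to 90th percentile and the median of all genes tested. The medians of the 40S, 60S and MYC target lists lie between -1.26 and -1.58, near the -1.23 of the 34 genes, and those of the MYC network partners (0.33) and proliferation markers (0.12) lie above 0.

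The direction of small differences depended on how the libraries were scaled. Against TMM, upper-quartile factors moved the log2 fold changes of all genes up by 0.21 and total counts alone by 0.60. The 34 genes then held 23 lower and 6 higher, and 19 lower and 7 higher. Among all genes, the shares lower and higher went from 37.1% and 42.0% to 32.7% and 46.3%, and to 25.2% and 55.0%. The median of the 34 genes minus that of all genes was -1.35 under each of these scalings. A change of scaling moves all genes alike, so it cannot alter this difference. The 12 genes lower by 2-fold in every alternative fit were *Fbl*, *Gar1*, *Gnl3*, *Ltv1*, *Ncl*, *Nolc1*, *Nop14*, *Nop56*, *Npm1*, *Pes1*, *Rrp9* and *Wdr43*. Without the 2-fold limit, *Bop1*, *Heatr1*, *Rrn3* and *Wdr12* were called higher in every alternative fit, and as reported each rose by less than 2-fold.

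**Figure D5:**
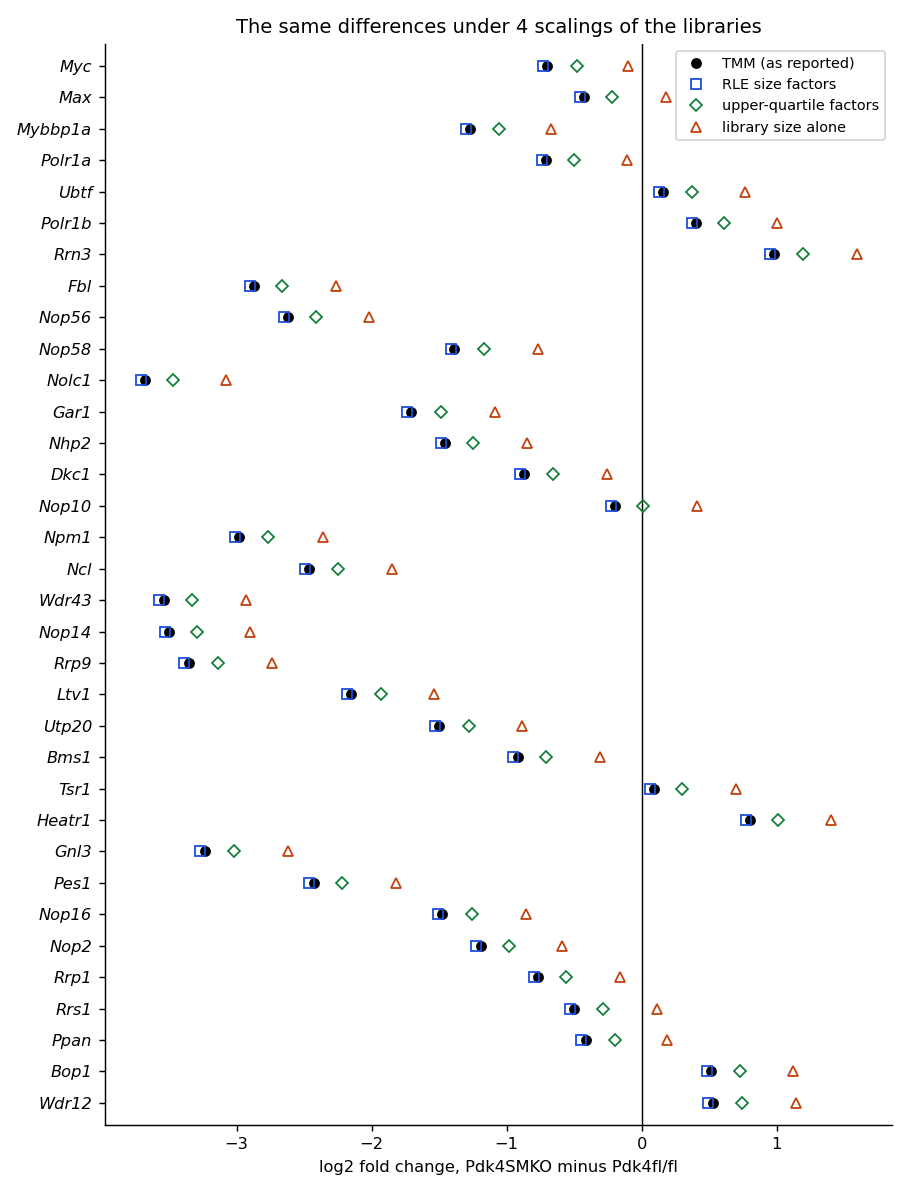
Log2 fold change of each of the 34 genes under 4 scalings of the libraries (filled circles TMM, as reported; squares RLE; diamonds upper quartile; triangles total counts alone). All genes move right together with upper-quartile factors and with total counts alone, and *Max*, *Nop10*, *Rrs1* and *Ppan* lie above 0 with total counts alone.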

How the data were processed

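MASMC RNA was sequenced in 6 libraries, 3 per genotype. Unnormalized counts were deposited by the authors as 1 table of whole numbers, with a column per library, which also gives the length of each gene model. The labels name a SMARTER library kit and the study's methods an NEBNext Ultra kit. The aligner, the counting program and the use of strand are not given in the sources used here. The submitters' processing notes name GRCm39, while all but 625 identifiers follow the Ensembl gene set for strain C57BL/6NJ, so coordinates are those of the table.

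Here, genes were filtered with filterByExpr, scaled by TMM and tested with the quasi-likelihood test of edgeR 4.0.16 in R 4.3.3, on genotype alone in all 6 libraries, with Benjamini-Hochberg adjustment over 14085 genes. Calls needed an adjusted p under 0.05, and calls at 2-fold were those where the log2 fold change was also at least 1 in size. Levels between genes were compared as CPM per kilobase, and summed or single low counts carry counting error besides the spread between libraries. Total counts of 16526044 to 22481670 and 242 to 62414 counts per library for each of the 34 genes set the precision.

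The 34 genes, their roles and the other lists were chosen with earlier results of these data known, so no p is given for a list. Values per library are given for up to 3 genes per role with the largest differences and no overlap, for *Myc* and *Max* and for genes not called, and from each other list the 2 lowest and the 2 highest called genes are named. *Rrs1*, *Mycn*, and the genes overlapping others were named after their values were seen, as were further genes given by library. List symbols not in the table were matched by RefSeq synonyms or the table's descriptions, which left *Riok2*, *Snu13* and *Lyz2* without a row. Promoter sequences are from RefSeq (GRCm38.p6), another build than the counts, and serve as sequence only.

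Alternatives were RLE, upper-quartile and total-count scaling, the authors' tool DESeq2 (version 1.42.0), testing without a filter, a minimum of 10 counts in each library, a 2-fold limit, the replicate number as a block, and leaving out each library. Restricting the 34 genes to those that overlap no other counted gene was added after the values were seen.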

Additional observations from a re-analysis of the deposited data

How the results depend on the processing

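Of the 34 genes, 25 were lower and 5 higher, and RLE scaling and DESeq2 gave 26 and 5, no filter 25 and 5, and at least 10 counts in every library 24 and 5. With 2-fold also required, 18 were lower and 0 higher. Leaving out each library gave 23 to 25 lower and 4 to 5 higher, and 23 of the lower and 4 of the higher genes were called in all of these fits. The 16 genes that overlap no other counted gene held 11 lower and 3 higher, fewer by construction. Directions turned for *Max* (0.18), *Rrs1* (0.11), *Ppan* (0.19) and *Nop10* (0.41) with total counts alone, and for *Nop10* with upper-quartile factors (0.01) and without Pdk4fl/fl replicate 3 (0.07, the highest with a library left out, the lowest being -0.31). With upper-quartile factors, the medians of the roles were -0.35 for MYC and its partner, 0.37 for polymerase I, -2.41 for box C/D, -2.51 for the abundant nucleolar proteins, -1.61 for 40S and -0.56 for 60S. With total counts alone they were 0.04, 0.76, -2.02, -2.11, -1.22 and -0.16, and -0.85 for box H/ACA with *Nolc1*, a shift that follows from the scaling itself. The 40S median was -1.72 with at least 10 counts in every library and ran from -1.93 to -1.76 with each library left out. Among the other lists, 11 other 40S factors were higher with total counts alone (4 as reported). Other 60S factors higher were 5 with upper-quartile factors, 10 with total counts alone and 0 with 2-fold required (2 as reported). Other polymerase I factors higher were 1 with 2-fold required and 2 to 5 with each library left out (4 as reported), with 2 without Pdk4fl/fl replicate 1 or 2. Proliferation markers higher were 4 with upper-quartile factors, total counts alone or no filter (2 as reported). Those lower were 1 with total counts alone or 2-fold required, and 2 to 4 with each library left out, with 4 without Pdk4SMKO replicate 1 (2 as reported). The causes of these changes in the lists' counts were not tested.

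The replicate numbers were shared by the genotypes in the labels. Deviations of same-numbered libraries correlated at 0.0396, 0.0604 and 0.176, and Pdk4fl/fl replicate 1 correlated better with Pdk4SMKO replicate 2 (0.0431) than with its own number, so the numbers were not taken as pairs. With the replicate number as a block, 26 of the 34 genes were lower and 5 higher, *Ppan* being the gene gained.

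Each of the 34 genes had at least 242 counts in every library. The 95% intervals of the 4 genes not called reached from -0.82 to 0.44 on the log2 scale.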
